A study of Bos grunniens with 18 samples.

Results

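The Krüppel-like factors (KLFs) are a family of transcription factors, and 9 of them were followed here in the blood of female yaks (Bos grunniens) across the reproductive stages. The members are the genes of the deposited table named KLF2, KLF3, KLF4, KLF6, KLF7, KLF10, KLF11, KLF12 and KLF13. All 9 were present among 20607 genes, and all 9 passed the low-count filter that left 14508 genes for testing. The lowest count of any member in any library was 374, so counting error is small beside the spread between animals.

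KLFs bind GC-rich and CACCC-box promoter sequences through a conserved zinc finger domain at their C-terminus, and differ mainly in the N-terminal part that recruits activators or repressors. KLF11 and its closest relative KLF10 are known as TGF-beta-inducible early genes that recruit the SIN3A corepressor. The 9 genes lie on 9 different chromosomes of the deposited table. In its GO annotation, 7 of the 9 carry sequence-specific double-stranded DNA binding, a term held by 242 of the 14508 tested genes, and 5 carry negative and 5 positive regulation of RNA polymerase II transcription. In blood cells, KLF2 is known for keeping naive T cells quiescent and KLF4 for monocyte differentiation.

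Whole blood was taken from adult yaks of 4 to 8 years, in EDTA tubes with TRIzol LS, in anestrus (the Y-A group), in estrus (the Y-E group) and in pregnancy (the Y-P group), with 6 libraries in each group. According to the study's methods the same cows, from an artificially inseminated herd, were followed through the stages. Estrus was brought about with a progesterone pessary, the prostaglandin PGF2α and GnRH followed by timed insemination, so that Y-E is an induced and not a spontaneous estrus, and every comparison between stages is also one between times of sampling. Total counts ranged from 30247267 to 48401076 per library.

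1 Y-E library stood apart from its stage in red cell RNA. Hemoglobin genes took 8.36% of the counts of Y-E replicate 6 and 0.0899% to 0.713% in the other Y-E libraries, so values that it moves are given with and without it. Replicate 6 also had the highest hemoglobin share of Y-A (16.7%, the others 3.10% to 12.1%) and of Y-P (0.376%, the others 0.0272% to 0.117%). The fits without Y-E replicate 6 keep both of these libraries. Markers of the blood cell types were detected in every stage, and their sums moved between stages. The sum of 7 neutrophil markers had a median of 5270 CPM (counts scaled to a common library size, after TMM) in anestrus, 9989 CPM in estrus and 3435 CPM in pregnancy. The sum of 5 T cell markers had medians of 806, 839 and 1107 CPM, and that of 5 reticulocyte markers 1560, 146 and 62.2 CPM, in the same order. CXCR2, CD3E and AHSP, also on these lists, were not analysed here. In whole blood, fewer cells of a type and less RNA per cell cannot be told apart.

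Read per exon length, as FPKM, the members covered a wide range of levels. KLF6, a factor induced by stress and injury, was the highest in every one of the 18 libraries, with a mean of 214 FPKM over all libraries and 162 FPKM in its lowest library. KLF2 came next with a mean of 103 FPKM, ahead of KLF13 (60.4 FPKM) in 16 of 18 libraries. KLF13 and KLF3 (59.3 FPKM) could not be ranked, since KLF13 was the higher of the pair in only 10 of 18 libraries.

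The lower members were KLF7 (35.3 FPKM), KLF10 (29.6 FPKM), KLF11 (17.2 FPKM), KLF12 (13.6 FPKM) and KLF4 (7.38 FPKM). KLF7 exceeded KLF10 in 13 of 18 libraries, among them every Y-E library. KLF11 exceeded KLF12 in 12 of 18, which were all the Y-A and Y-P libraries, and was below KLF12 in every Y-E library. That split includes the stage pattern by which KLF11 was chosen, described below. By contrast, KLF10 exceeded KLF11 in 18 of 18 libraries and KLF12 exceeded KLF4 in 17 of 18.

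**Figure D1:**
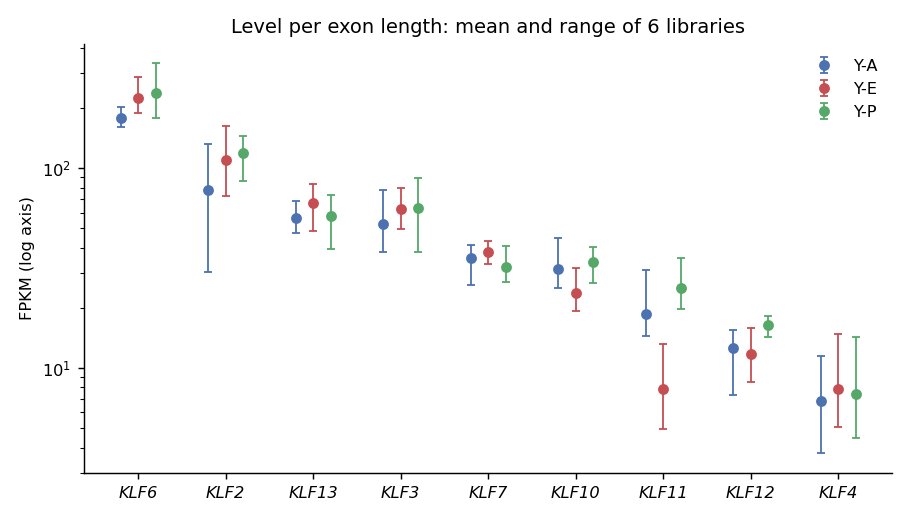
Mean FPKM (log axis) of each Krüppel-like factor in Y-A, Y-E and Y-P, with bars from the lowest to the highest of 6 libraries and genes ordered by overall mean. KLF11 drops from 18.6 FPKM in Y-A to 7.82 FPKM in Y-E and stands at 25.1 FPKM in Y-P, while the stage ranges of the other members overlap.

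KLF11 (ENSBGRG00000011215; chromosome 9, 113729036 to 113739430, minus strand, 2 annotated transcripts) was placed at the head of the family because of its difference between estrus and pregnancy in these same libraries. Its values are therefore a description, with no test. In Y-A, KLF11 ran from 33.4 to 74.6 CPM with a median of 41.9 CPM. In Y-E it ran from 13.1 to 30.1 CPM with a median of 17.1 CPM, and in Y-P from 43.0 to 71.2 CPM with a median of 51.9 CPM. Every Y-E library thus lay below every Y-A and every Y-P library, whereas Y-A and Y-P overlapped.

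The stage means of KLF11 were 46.0 ± 14.8 CPM in Y-A, 18.9 ± 6.90 CPM in Y-E and 53.5 ± 9.95 CPM in Y-P (SD, n = 6). On the log2 scale the fitted difference was −1.28 (SE 0.22) for Y-E vs. Y-A, 1.50 (SE 0.23) for Y-P vs. Y-E and 0.22 (SE 0.22) for Y-P vs. Y-A. Without Y-E replicate 6, which held 13.8 CPM, the first of these was −1.20 and the second 1.42. Of all tested genes, 0.172% had every Y-E library below every Y-A library, 2.19% had every Y-P library above every Y-E library, and 0.0482% (7 genes) had Y-E below both other groups.

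The named genes that share this arrangement with KLF11 were EIF3H, a translation initiation factor subunit, EXOSC10 of the RNA exosome, TRNAU1AP and ENOPH1, beside 2 genes without a symbol. EXOSC10, for instance, ran from 74.8 to 91.7 CPM in Y-E and from 92.4 to 99.3 CPM in Y-A. These 7 genes were picked by that arrangement and are named for comparison only.

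Libraries with the same number were taken as the same cow, and on that reading KLF11 was lower in estrus than in anestrus in 6 of 6 animals, by log2 ratios from −1.75 to −0.90. It was higher in pregnancy than in estrus in 6 of 6, by 0.71 to 2.09. Between pregnancy and anestrus the sign was mixed, with 5 of 6 higher in pregnancy and number 4 lower by a log2 ratio of −0.60. Number 4 carried the highest KLF11 of both Y-A (74.6 CPM) and Y-E (30.1 CPM), but not of Y-P (49.1 CPM).

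Restated as a part of the family total, KLF11 was again smallest in estrus, which rests on the same values by which it was chosen. Its share of the summed FPKM of the 9 members averaged 3.99% in anestrus, 1.42% in estrus and 4.27% in pregnancy, and the highest share in Y-E (2.34%) was below the lowest in Y-A (3.15%). KLF6 held 38.2%, 40.6% and 39.8% in the same stages.

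Neutrophil marker sums were highest in Y-E, where KLF11 was lowest. Y-E replicate 6 had the lowest neutrophil sum of its stage, 4710 CPM, inside the Y-A range of 3652 to 9248 CPM, and its KLF11 level was 13.8 CPM. Y-A replicate 5 had the highest neutrophil sum of its stage and held KLF11 at 38.0 CPM, against a stage median of 41.9 CPM. Y-E replicate 3 had the highest neutrophil sum of its stage, 12404 CPM, and the lowest KLF11, 13.1 CPM. The highest KLF11 of Y-E, 30.1 CPM, was in replicate 4, with a neutrophil sum of 7157 CPM. The highest of Y-A, 74.6 CPM, was also in replicate 4, with a neutrophil sum of 4627 CPM. In Y-A and Y-E, replicate 4 also had the highest sum of 7 B cell markers, 2047 and 1731 CPM. It had the lowest sum of 6 monocyte markers in both, 475 and 436 CPM. In Y-P the highest KLF11, 71.2 CPM, was in replicate 1. There the highest B cell sum, 2209 CPM, was in replicate 3 and the lowest monocyte sum, 358 CPM, in replicate 4. The parts of neutrophil, B cell and monocyte RNA in the KLF11 difference were not tested.

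**Figure D2:**
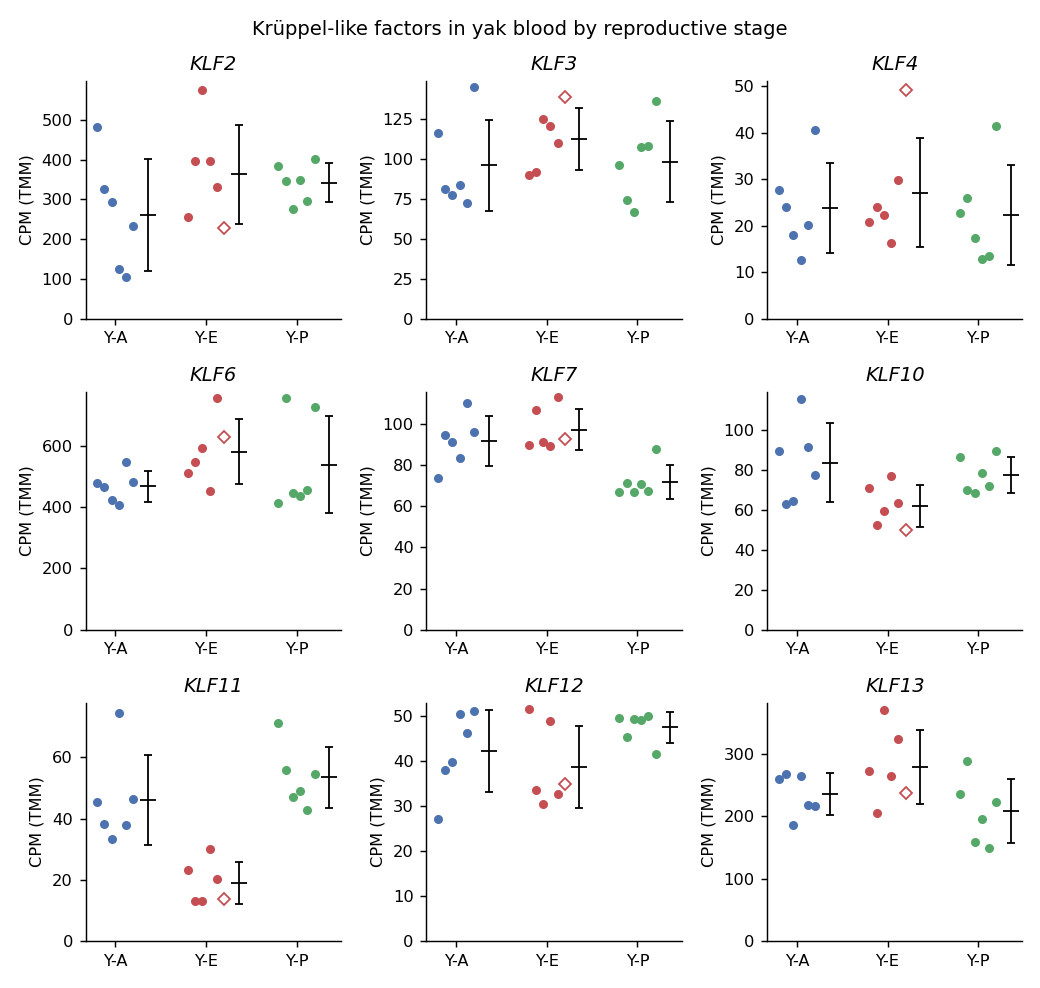
CPM after TMM scaling of each Krüppel-like factor in the 18 libraries, with 1 point per library in the order of replicate number, the open diamond for Y-E replicate 6, and mean ± SD of the 6 libraries beside each group. KLF11 in Y-E (13.1 to 30.1 CPM) lies below both other groups, and KLF7 in Y-P (66.7 to 87.9 CPM) lies below Y-E.

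The question for the other 8 members was whether their levels differed between stages, read against all genes tested. For Y-E vs. Y-A, 0 of the 8 were called at an adjusted p under 0.05 by the edgeR quasi-likelihood test, beside 0.0207% of all genes (3 of 14508). At an unadjusted p under 0.05 by that test there was 1, KLF10, beside 900 of 14508 genes, and DESeq2 and limma on FPKM also called 0. For Y-P vs. Y-A again 0 of 8 were called, where 5.83% of all genes were (2.22% higher and 3.61% lower). There 1 member (KLF7) had an unadjusted p under 0.05, beside 3299 of 14508 genes. DESeq2 called 1 member, beside 1489 of all genes. For Y-P vs. Y-E 1 of 8 was called, KLF7, which fell, where 14.4% of all genes were called, 5.77% higher and 8.68% lower. Here 3 members (KLF7, KLF10 and KLF13) had an unadjusted p under 0.05, beside 4246 of 14508 genes. Without Y-E replicate 6 the counts of members were again 0, 0 and 1, and the shares of all genes were 0.157%, 6.06% and 13.7%.

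None of the 8 reached the study's fold threshold of 1 on the log2 scale in any comparison. Together with the adjusted p, that threshold was passed by 0.0138%, 1.43% and 2.67% of all genes, in the same order. The median log2 difference of the 8 was 0.21 for estrus and −0.03 for pregnancy, each against anestrus, and −0.15 for pregnancy against estrus. The medians of all tested genes were −0.01, 0.03 and 0.04.

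**Figure D3:**
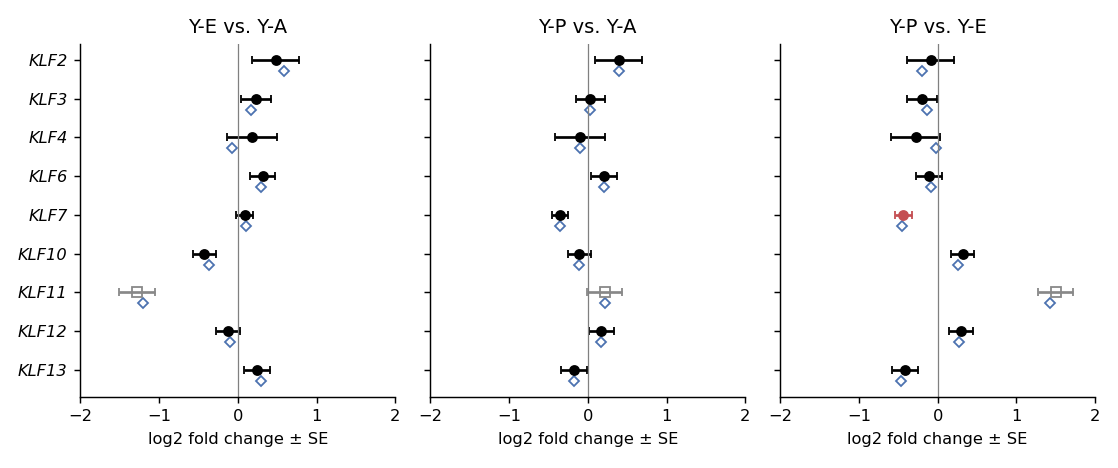
Log2 difference (edgeR, x axis, error bars 1 SE) of each Krüppel-like factor in the 3 comparisons, with open blue diamonds for the fit without Y-E replicate 6. Red marks KLF7 in Y-P vs. Y-E (−0.44), the single member called, and the open grey square marks KLF11, which was not tested.

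KLF10 (ENSBGRG00000008094; chromosome 18, 53120624 to 53125972, plus strand), the other TGF-beta-inducible member, had its lowest levels in the same stage as KLF11, over a smaller range. It ran from 62.7 to 116 CPM in Y-A with a median of 83.3 CPM, from 49.9 to 76.9 CPM in Y-E with a median of 61.2 CPM, and from 68.4 to 89.6 CPM in Y-P with a median of 75.1 CPM. The groups overlapped in each comparison. By number, KLF10 was lower in Y-E than in Y-A in 6 of 6 pairs and higher in Y-P than in Y-E in 6 of 6.

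The log2 difference of KLF10 was −0.43 (SE 0.15, edgeR adjusted p = 0.532) in Y-E vs. Y-A, and −0.37 (adjusted p = 0.460) without Y-E replicate 6. In Y-P vs. Y-E it was 0.32 (SE 0.15, adjusted p = 0.149), and 0.26 (adjusted p = 0.266) without that library. On the FPKM scale limma gave 0.50 on log2(FPKM + 1) in Y-P vs. Y-E with an adjusted p of 0.0274, where the median of all genes was 0.14. With the replicate number as a block, edgeR gave −0.41 (adjusted p = 0.246) in Y-E vs. Y-A and 0.33 (adjusted p = 0.0536) in Y-P vs. Y-E. Neither KLF10 difference passed the main test.

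KLF10 and KLF11 also varied together inside the stages. After each stage mean was subtracted from log2 CPM, the Pearson correlation between the pair over 18 libraries was 0.809 (Spearman 0.715). It was the second highest with KLF11 among 12735 other tested genes with counts in every library. Taken stage by stage, over 6 libraries each, it was 0.822 in anestrus, 0.922 in estrus and 0.616 in pregnancy. Without Y-A replicate 4 and Y-E replicate 4, which lie farthest out, it was 0.671 over 16 libraries. The libraries share cows, depth and cell composition, so these values describe the libraries and carry no test.

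**Figure D4:**
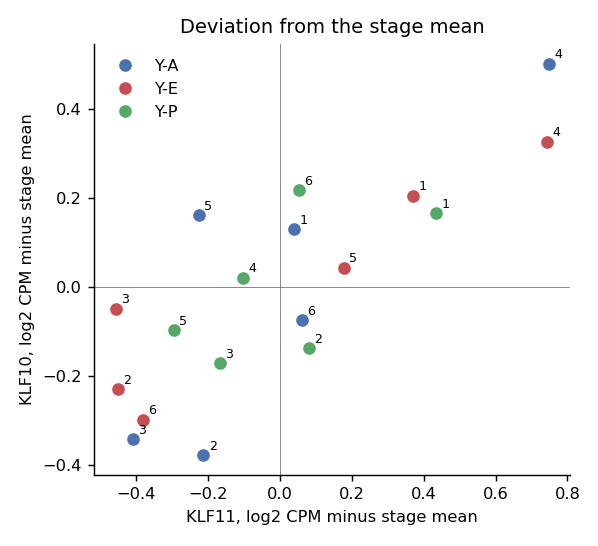
Deviation of log2 CPM from the stage mean for KLF11 (x axis) and KLF10 (y axis) in 18 libraries, coloured by stage and labelled by replicate number. The points run from Y-A replicate 3 at the lower left to Y-A replicate 4 at the upper right, with a Pearson correlation of 0.809.

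KLF13 (ENSBGRG00000010998; chromosome 17, 29117448 to 29163375, plus strand) belongs to the same SIN3A-recruiting branch and is known for activating the chemokine gene CCL5 in T lymphocytes. It ran from 186 to 269 CPM in Y-A (median 239 CPM), from 206 to 371 CPM in Y-E (median 269 CPM) and from 149 to 288 CPM in Y-P (median 210 CPM). Estrus had the highest mean of the stages, where KLF11 had its lowest. The Y-P vs. Y-E difference was −0.42 on the log2 scale (SE 0.16, edgeR adjusted p = 0.0938), lower in 5 of 6 pairs, and −0.46 (adjusted p = 0.0831) without Y-E replicate 6. It was called only when Y-P replicate 2, the highest of its stage, was left out (−0.53, adjusted p = 0.0358).

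KLF7 (ENSBGRG00000007842; chromosome 2, 45327207 to 45439037, plus strand, 3 annotated transcripts), an activator known as ubiquitous KLF, fell in pregnancy relative to estrus. It ran from 73.9 to 110 CPM in Y-A (median 93.0 CPM), from 89.3 to 113 CPM in Y-E (median 92.0 CPM) and from 66.7 to 87.9 CPM in Y-P (median 69.1 CPM). Every Y-P library lay below every Y-E library, an arrangement held by 3.84% of all tested genes, and in 5 of the Y-P libraries KLF7 lay between 66.7 and 71.2 CPM. Y-P replicate 6, at 87.9 CPM, stood above these.

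The Y-P vs. Y-E difference of KLF7 was −0.44 on the log2 scale (SE 0.10, edgeR adjusted p = 0.00998), lower in 6 of 6 pairs, and −0.45 (adjusted p = 0.0134) without Y-E replicate 6. It was called in each of the 18 fits that left out 1 library. The call was lost when libraries were scaled by total counts alone (−0.29, adjusted p = 0.0992) and with limma on log2(FPKM + 1) (−0.24, adjusted p = 0.144). Scaling by total counts moved the median of all genes from 0.04 to 0.18 in this comparison, and relative to that median KLF7 stood at −0.48 with TMM and −0.47 with total counts.

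In Y-P vs. Y-A, KLF7 was lower in 6 of 6 pairs, at −0.35 on the log2 scale (SE 0.10, edgeR adjusted p = 0.0534), which missed the threshold. A block for the replicate number gave an adjusted p of 0.0375 (−0.34) and DESeq2 one of 0.0256. Leaving out Y-A replicate 1 gave 0.0277, and leaving out Y-P replicate 6 gave 0.0292. With total counts alone it was 0.323 (−0.19). Of the markers, 5 of 7 neutrophil genes were called lower and 3 of 5 T cell genes higher in Y-P vs. Y-E, and their part in the KLF7 difference was not tested.

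**Figure D5:**
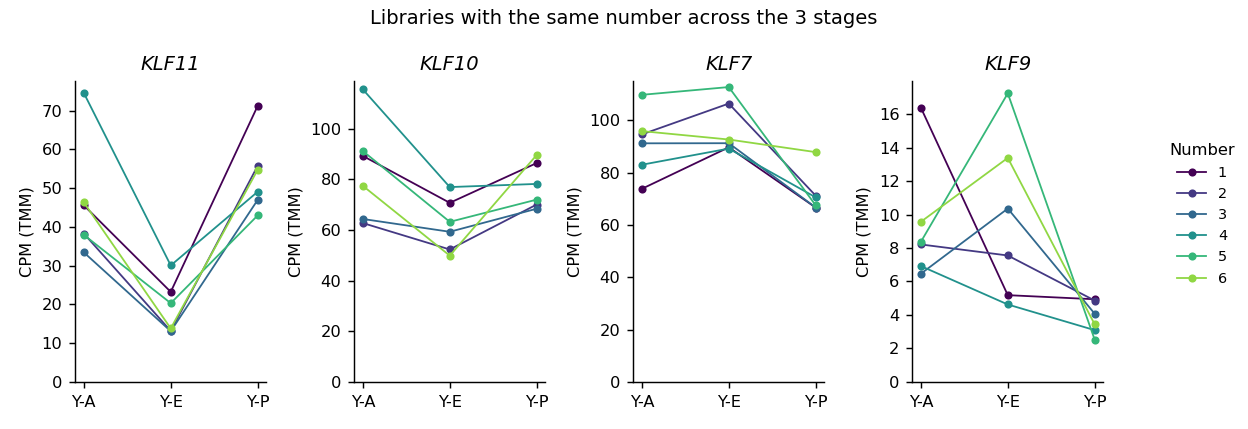
CPM after TMM scaling in Y-A, Y-E and Y-P for KLF11, KLF10, KLF7 and KLF9, with a line joining the libraries that carry the same replicate number. KLF11 and KLF10 dip in estrus along 6 of 6 lines, and KLF7 and KLF9 are lower in pregnancy than in estrus along 6 of 6 lines.

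KLF3 (ENSBGRG00000004311; chromosome 6, 65644833 to 65666451, minus strand) and KLF12 (ENSBGRG00000005748; chromosome 15, 31262117 to 31725622, plus strand) are repressors that recruit CtBP proteins. KLF3 ran from 72.2 to 145 CPM in Y-A, from 89.5 to 139 CPM in Y-E and from 66.7 to 136 CPM in Y-P, with medians of 82.2, 115 and 102 CPM, and the groups overlapped. Its log2 differences lay between −0.20 and 0.23, and none was called. In each stage, replicate 6 held the most KLF3.

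KLF12 ran from 27.2 to 51.1 CPM in Y-A, from 30.4 to 51.6 CPM in Y-E and from 41.5 to 50.1 CPM in Y-P, with medians of 43.1, 34.3 and 49.3 CPM. Pregnancy was the tightest stage, with a coefficient of variation of 7.20% against 21.5% in Y-A and 23.7% in Y-E. This difference in spread was not tested. The Y-P vs. Y-E difference was 0.30 on the log2 scale (SE 0.16, edgeR adjusted p = 0.218), higher in 5 of 6 pairs. Genes ENSBGRG00000005784 and ENSBGRG00000005797 lie on the opposite strand within the span of KLF12, and the strand setting of the counting is not given in the sources used here, so its counts may hold reads of these genes.

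KLF2 (ENSBGRG00000012120; chromosome 8, 3096687 to 3100092, plus strand), the factor of T cell quiescence and of the endothelial response to flow, varied most between animals in anestrus. It ran from 104 to 481 CPM in Y-A (median 263 CPM), from 228 to 574 CPM in Y-E (median 363 CPM) and from 276 to 401 CPM in Y-P (median 347 CPM). The lowest values were in Y-A replicates 5 and 4, at 104 and 125 CPM, below every library of the other stages. The coefficient of variation was 53.7% in anestrus, 34.2% in estrus and 14.3% in pregnancy, a difference that was not tested.

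The largest KLF2 difference by size was 0.48 on the log2 scale in Y-E vs. Y-A (SE 0.29, edgeR adjusted p = 0.907), and 0.58 (adjusted p = 0.650) without Y-E replicate 6. With 1 library left out it ran from 0.30 (without Y-E replicate 3) to 0.75 (without Y-A replicate 1), and no such fit called it. The ratios by number ran from −0.91 to 1.67, with 4 of 6 higher in estrus. Within stages KLF2 and KLF12 deviated in opposite directions, with a Pearson correlation of −0.636 over 18 libraries and −0.500 without the outermost pair.

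KLF4 (ENSBGRG00000002035; chromosome 7, 34791269 to 34796361, minus strand, 4 annotated transcripts), the monocyte differentiation factor, was the lowest member by FPKM, and its spread within each stage was wider than the differences between stage means. It ran from 12.6 to 40.6 CPM in Y-A, from 16.2 to 49.2 CPM in Y-E and from 12.8 to 41.3 CPM in Y-P, with medians of 22.0, 23.1 and 20.0 CPM. Replicate 6 was the highest and replicate 4 the lowest in each of the 3 stages. The same libraries held the highest and the lowest sum of 6 monocyte markers of their stage, at 1010 and 475 CPM in anestrus, 1102 and 436 CPM in estrus, and 784 and 358 CPM in pregnancy, and the part of monocyte RNA in the KLF4 level was not tested.

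No KLF4 difference between stages was called. In Y-E vs. Y-A it was 0.19 on the log2 scale (SE 0.32, edgeR adjusted p = 0.999). Without Y-E replicate 6 it was −0.07 (adjusted p = 0.989). With the replicate number as a block it was 0.20 (SE 0.15, adjusted p = 0.803), and 0.20 (adjusted p = 0.781) without that library. KLF4 was higher in estrus in 5 of 6 pairs, and the sign changed only in the fit that ignored the pairing. In Y-P vs. Y-E the KLF4 difference was −0.28 (adjusted p = 0.608), and −0.02 (adjusted p = 0.974) without Y-E replicate 6. The block gave −0.31 there (SE 0.15, adjusted p = 0.158).

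KLF6 (ENSBGRG00000012023; chromosome 12, 36409070 to 36415713, plus strand, 4 annotated transcripts) ran from 407 to 547 CPM in Y-A (median 470 CPM), from 453 to 754 CPM in Y-E (median 569 CPM) and from 412 to 755 CPM in Y-P (median 450 CPM). It was higher in estrus than in anestrus in 6 of 6 pairs, by log2 ratios from 0.10 to 0.48, but the difference of 0.31 (SE 0.16, edgeR adjusted p = 0.852) was not called. In Y-P the libraries parted, with replicates 2 and 6 at 755 and 724 CPM and the others between 412 and 455 CPM. Another gene, ENSBGRG00000003625, overlaps KLF6 on the same strand, so reads could be shared between them.

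Among KLF4, KLF6 and KLF7, log2 CPM minus its stage mean had a Pearson correlation, over 18 libraries, of 0.662 for KLF4 with KLF6, 0.594 for KLF6 with KLF7 and 0.358 for KLF4 with KLF7. With KLF11 the corresponding values were −0.216 for KLF4, −0.219 for KLF6 and −0.254 for KLF7, and 0.513 for KLF12.

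Over all 18 libraries, the named genes whose CPM ranked most like KLF11 were MCM9, a DNA repair helicase, with a Spearman correlation of 0.866, ASH2L of the histone H3 methyltransferase complexes (0.851), PLAGL1 (0.839), LIX1L (0.839) and ZMYND11 (0.825), a reader of methylated histone. These values include the stage pattern by which KLF11 was chosen. Within stages the nearest were NEXN (0.841), KLF10 (0.809), CABLES1 (0.761), ASH2L (0.752) and TNKS (0.745), where NEXN and CABLES1 are low genes with means of 0.798 and 0.881 FPKM. ASH2L was on both lists. Its means of 65.1, 53.9 and 73.1 CPM in anestrus, estrus and pregnancy had their low point in estrus, as KLF11 did.

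Of 9 further KLF genes listed, 5 were in the table and 4 were tested. None was called between estrus and anestrus, 2 were lower in pregnancy than in anestrus, and 1 was lower in pregnancy than in estrus, against the all-gene shares of 0.0207%, 3.61% lower and 8.68% lower given above. KLF9 (ENSBGRG00000000307), a SIN3A-recruiting relative of KLF11 known as a partner of the progesterone receptor in the uterus, fell in pregnancy. It ran from 6.46 to 16.4 CPM in Y-A, from 4.63 to 17.2 CPM in Y-E and from 2.52 to 4.94 CPM in Y-P. Every Y-P library was below every Y-A library, as for 2.32% of all genes, and Y-P was lower than Y-E in 6 of 6 pairs.

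On the log2 scale KLF9 differed by −1.29 (SE 0.31, edgeR adjusted p = 0.0237) in Y-P vs. Y-A and −1.35 (SE 0.31, adjusted p = 0.00760) in Y-P vs. Y-E, or −1.24 (adjusted p = 0.0168) without Y-E replicate 6. In Y-E vs. Y-A it was 0.06 (adjusted p = 0.999). KLF9 and KLF11 thus had different low points, pregnancy for KLF9 and estrus for KLF11.

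KLF1, the erythroid member, fell in Y-P vs. Y-A by 3.83 on the log2 scale (SE 0.84, edgeR adjusted p = 0.0149), from 17.3 ± 19.0 CPM in Y-A to 1.22 ± 0.559 CPM in Y-P (SD, n = 6). All 5 tested reticulocyte markers, KLF1 among them, were called lower in this comparison. In Y-E vs. Y-A, KLF1 stood at −1.72 (adjusted p = 0.739), and at −3.27 (adjusted p = 0.0472) without Y-E replicate 6, which held 22.5 CPM. Blocked by replicate number, it stood there at −2.19 (adjusted p = 0.0271). For Y-P vs. Y-E, KLF1 stood at −2.11 (adjusted p = 0.0798), at −0.55 (adjusted p = 0.594) without Y-E replicate 6 and at −1.10 (adjusted p = 0.0499) with the block, so most of that difference rested on 1 library.

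Among the SP factors, which bind the same GC-rich sites, 4 of 9 listed were tested. SP1 fell in both comparisons with pregnancy, from means of 216 CPM in anestrus and 223 CPM in estrus to 158 CPM, by log2 differences of −0.44 (edgeR adjusted p = 0.0116) and −0.49 (adjusted p = 0.00225). Scaled by total counts alone, the first was no longer called (−0.28, adjusted p = 0.115). SP3, the most abundant by FPKM, had −0.48 in Y-P vs. Y-E (adjusted p = 0.0814, and 0.0332 with the replicate number as a block).

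Of the corepressors and coactivators that KLFs recruit, 9 of 10 listed were tested. In Y-P vs. Y-E 1 was higher and 4 were lower, where 5.77% and 8.68% of all genes were. Those lower were the acetyltransferases EP300 (−0.90 on the log2 scale, edgeR adjusted p = 0.00167), CREBBP (−0.83, adjusted p = 0.00526) and KAT2B (−0.55, adjusted p = 0.0412), and the corepressor CTBP2 (−0.75, adjusted p = 0.00164). The deacetylase HDAC3 was higher (0.36, adjusted p = 0.0262). KAT2B was no longer called without Y-E replicate 6 (adjusted p = 0.0713) or with total counts alone (adjusted p = 0.0992), a scaling under which HDAC2 was called higher (0.41, adjusted p = 0.0192).

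In Y-P vs. Y-A, 3 of the same 9 were called, where 5.83% of all genes were. EP300 (−0.74), CTBP2 (−0.59) and CREBBP (−0.62) were lower. With total counts alone CREBBP was not called there (adjusted p = 0.128), and HDAC3 was called higher (0.46, adjusted p = 0.0167). SIN3A, the corepressor of KLF10 and KLF11, was at −0.30 in Y-P vs. Y-E (edgeR adjusted p = 0.0831). The median of the list was −0.30 in Y-P vs. Y-E and −0.22 in Y-P vs. Y-A, against 0.04 and 0.03 over all tested genes.

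TGF-beta signalling is the pathway after which KLF10 and KLF11 were first named, and all 9 listed genes were tested. None was called against anestrus, and 3 were lower in Y-P vs. Y-E, where 8.68% of all genes were. They were the ligand TGFB1 (−0.65, edgeR adjusted p = 0.00715), the receptor TGFBR2 (−0.40, adjusted p = 0.0148) and the SMAD corepressor SKI (−1.06, adjusted p = 0.00441). The call of TGFBR2 ended with total counts alone (adjusted p = 0.144). The means of TGFB1 were 359, 434 and 277 CPM in anestrus, estrus and pregnancy, with the highest mean in the stage where KLF11 was lowest.

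Of the genes that induce or degrade KLF2 and KLF4, 9 of 11 listed were tested, and in pregnancy 2 were lower than in anestrus and 4 lower than in estrus, where 3.61% and 8.68% of all genes were. The 4 were the kinases MAP3K3 (−0.68, edgeR adjusted p = 0.00158) and MAPK7 (−0.59, adjusted p = 0.0304), the factor MEF2A (−0.53, adjusted p = 0.00846) and the ubiquitin ligase SMURF1 (−0.60, adjusted p = 0.0305). MAP3K3 and MEF2A were also the 2 in Y-P vs. Y-A (adjusted p = 0.0429 and 0.0320), where total counts alone ended both calls (0.182 and 0.150). In Y-P vs. Y-E the calls of MEF2A (0.0598), MAPK7 (0.0965) and SMURF1 (0.0926) ended under that scaling.

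WWP1 and FBXW7, ubiquitin ligases of the same list, are named because their calls changed with the block. WWP1 stood at 0.46 in Y-P vs. Y-E (edgeR adjusted p = 0.0550, 0.00484 with the replicate number as a block, and 0.0181 without Y-E replicate 6), and its adjusted p in Y-P vs. Y-A went from 0.110 to 0.0184 with the block. FBXW7 in Y-P vs. Y-A went from 0.109 to 0.0361.

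Of 12 known leukocyte targets of KLF2 and other KLFs, 11 were tested, and 1 was called, in both comparisons with pregnancy. There, 5.83% (Y-P vs. Y-A) and 14.4% (Y-P vs. Y-E) of all genes were called, so that 1 of 11 is near the background. CCR7, the lymph node homing receptor, was higher in pregnancy, at 208 CPM on average in Y-P against 150 CPM in Y-A (0.47 on the log2 scale, edgeR adjusted p = 0.0445) and 155 CPM in Y-E (0.42, adjusted p = 0.0422, and 0.0584 without Y-E replicate 6). With total counts alone the nitric oxide synthase NOS3 was also called higher (adjusted p = 0.0404 against Y-A and 0.0384 against Y-E). The lymphocyte exit receptor S1PR1 had means of 93.5, 97.4 and 96.9 CPM in Y-A, Y-E and Y-P, with no call. Of the T cell markers, 2 of 5 were called higher against Y-A and 3 of 5 against Y-E, and their part in the CCR7 difference was not tested.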

How the data were processed

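RNA of whole blood was sequenced by the authors as polyA-selected, dUTP-marked paired-end libraries. The submitters' processing notes name Cutadapt 1.9, HISAT2 2.2.1 and StringTie 2.1.6. The authors deposited whole-number counts and FPKM values, which are scaled by the length of the exons and by the reads mapped, for every gene in each library. The paper names the Bos grunniens genome by a version label only. How the counts were made and the strand setting are not given in the sources used here, and positions are those of the deposited table. Samples were grouped by their titles.

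Counts were tested with edgeR 4.0.16 in R 4.3.3 (TMM, filterByExpr, 1 quasi-likelihood fit of stage over 18 libraries, two-sided). This main fit had no term for the cow and so ignored the pairing by replicate number. Benjamini-Hochberg adjustment ran over all genes tested in a comparison. The SE beside a log2 difference is the size of that difference divided by the square root of its quasi-likelihood F statistic. For KLF11 the SE is given for scale only and is not read as a test. A call means an adjusted p under 0.05, the condition for rose or fell, and calls were also counted at the study's absolute log2 fold change of at least 1. The script was tested on simulated counts. CPM were computed from the deposited counts after TMM scaling. Alternatives were DESeq2 1.42.0, limma 3.58.1 on log2(FPKM + 1) and log2(FPKM + 0.1), other scalings, no filter, no hemoglobin genes, a replicate block, and each library left out. The fit combining the block with the removal of Y-E replicate 6 was added after the data were seen.

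The methods say that 6 cows were followed, so equal replicate numbers were read as 1 cow. Deviations from the stage means correlated between same-numbered libraries by −0.0544 to 0.515, over 0.1 in 14 of 18 pairs. Libraries with different numbers were not compared, so these values cannot show whether equal numbers mark 1 cow.

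The members, gene lists and tests were chosen with earlier results of these data known. All members are named. From each list the called genes are named (up to 4 per comparison by smallest adjusted p), otherwise the 2 highest by FPKM, and the 5 genes most like KLF11. WWP1, FBXW7, KAT2B, HDAC2, NOS3, S1PR1, SIN3A and SP3, and the genes lowest in estrus, fall outside this rule and were chosen after their values were seen. No sequences are printed. Libraries held 30247267 to 48401076 counts, so that 3 counts, the limit that a count of 0 allows, equal 0.0620 to 0.0992 CPM. This covers counting error only.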

Additional observations from a re-analysis of the deposited data

Results flagged for a closer look

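Each member was examined in each stage for a single library far from the other 5, by the ratio of its gap to the range of the group. Of 27 groups, 2 passed the 95% critical value of 0.625, where chance gives about 1 in 20. KLF7 in Y-P replicate 6 stood at 87.9 CPM, with a ratio of 0.786. KLF11 in Y-A replicate 4 stood at 74.6 CPM, with a ratio of 0.686. Without Y-A replicate 4 or any other single library, the log2 difference of KLF11 lay between −1.46 and −1.09 in Y-E vs. Y-A. Leaving out any 1 library kept the KLF7 difference in Y-P vs. Y-E between −0.50 and −0.39.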

How the results depend on the processing

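Members called numbered 0 in Y-E vs. Y-A under every alternative run, KLF11 not being counted. In Y-P vs. Y-A the count rose from 0 to 1 (KLF7) with DESeq2, with the replicate block, and with the block without Y-E replicate 6, and ran from 0 to 1 when 1 library was left out (1 without Y-A replicate 1 or Y-P replicate 6). In Y-P vs. Y-E it went from 1 to 0 with library size only, ran from 1 to 2 when 1 library was left out (2 without Y-P replicate 2), and was 1 with limma on FPKM, where the gene was KLF10 and not KLF7. The replicate block changed no other call of a member.

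Of all genes, calls in Y-E vs. Y-A numbered 3, and 65 with DESeq2, 14 with the replicate block, 54 with the block and no Y-E replicate 6, and 3 to 23 with 1 library left out (23 without Y-E replicate 6). In Y-P vs. Y-A they numbered 846, and 1489 with DESeq2, 1333 with library size only, 1928 and 2116 with limma on log2(FPKM + 0.1) and log2(FPKM + 1), 1282 with the replicate block, and 386 to 1077 with 1 library left out (lowest without Y-P replicate 2). In Y-P vs. Y-E they numbered 2096, and 2760 with DESeq2, 2553 with library size only and 2608 with the replicate block. There limma on log2(FPKM + 0.1) and log2(FPKM + 1) called 2931 and 3070. With 1 library left out, Y-P vs. Y-E had 1372 to 2305 calls (lowest without Y-E replicate 5). With library size only, the split changed from 322 higher and 524 lower to 1075 and 258 in Y-P vs. Y-A, and from 837 and 1259 to 1795 and 758 in Y-P vs. Y-E, and the median of all genes in Y-P vs. Y-A moved from 0.03 to 0.19.

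Uncalled differences changed sign with library size only, limma (0.1) and limma (1), in that order, for KLF4 (0.10, 0.078, 0.071) and KLF10 (0.068, 0.12, 0.12) in Y-P vs. Y-A, and for KLF2 (0.065, 0.15, 0.15) and KLF6 (0.043, 0.051, 0.051) in Y-P vs. Y-E. KLF13 in Y-P vs. Y-A turned to 0.0054 and 0.0058 with the limma fits. With 1 library left out, the ranges crossed 0 for KLF4 in Y-E vs. Y-A (−0.074 to 0.39) and in Y-P vs. Y-A (−0.37 to 0.10), KLF3 (−0.082 to 0.16) and KLF10 (−0.18 to 0.0086) in Y-P vs. Y-A, and KLF2 in Y-P vs. Y-E (−0.19 to 0.089). The cause was not tested.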
